A study of Homo sapiens with 6 samples.

Results

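The genes described here encode 10 large chromatin regulators: the histone H3 lysine 4 (H3K4) methyltransferases KMT2A, KMT2B, KMT2C and KMT2D, the H3 lysine 36 (H3K36) methyltransferases SETD2 and NSD1, the histone acetyltransferases CREBBP (CBP) and EP300 (p300), and the chromatin remodelling proteins ARID1A and CHD4. They were taken by symbol from the deposited table, which holds 17687 genes. All 10 were found and all 10 passed the filter on low counts, among 14005 genes tested. The study treated KHM-5M cells, a line derived from an anaplastic thyroid cancer, with sodium selenite (SS) and sequenced their polyadenylated RNA. The control group is labelled only as control, and the paper names PBS for the controls of other assays but not for the sequencing. The SS group received SS, and the SS+NAC group received SS together with the antioxidant N-acetylcysteine (NAC). Each group had 2 libraries, which the study calls biological replicates, grown in RPMI-1640 medium with serum. One cell line was sequenced, the labels give neither the dose nor the exposure time of the sequenced cells, and no library of cells given NAC alone was analysed here.

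Chromatin is regulated by enzymes that mark histone tails and by machines that move nucleosomes. KMT2A and KMT2B place H3K4 methylation mainly at promoters, whereas KMT2C and KMT2D place monomethylation at enhancers, and CBP and p300 acetylate histones at the same enhancers. SETD2 trimethylates H3K36 along transcribed genes, and NSD1 dimethylates it. ARID1A is a DNA-binding subunit of the BAF (SWI/SNF) remodelling complex, and CHD4 is the ATPase of the NuRD complex, which joins remodelling with histone deacetylation. All are encoded by long messenger RNAs, and many of these genes are mutated in human cancers.

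The libraries held between 17645545 and 23810056 expected counts. The fit's biological coefficient of variation was 6.74%. In every group the replicates differed by more than counting noise, with a chi-square per degree of freedom of 3.10 in control, 7.33 in SS and 12.2 in SS+NAC. The labelled cell type was checked by marker genes. PAX8, a thyroid lineage factor, lay between 253 and 278 CPM (counts scaled to library size with TMM factors), and the keratins KRT8 and KRT18 and the mesenchymal genes VIM and FN1 each reached at least 502 CPM in every library. Of the other thyroid genes, TG, SLC5A5, NKX2-1 and FOXE1 lay at or below 2.62 CPM. The epithelial markers EPCAM and CDH1 lay at or below 5.22 CPM. PTPRC and PECAM1, which mark blood and endothelial cells, lay at or below 1.23 CPM.

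The promoters of 3 of these genes are shown, because KMT2D fell furthest after SS, EP300 fell with KMT2D in both fits described below, and CHD4 did not fall in CPM. Each is the RefSeq window of 300 bases on GRCh38.p14, from 250 bases before the transcription start to 50 bases after it, read 5′ to 3′ on the strand of the gene. Capitals mark the GC box GGGCGG on the printed or the opposite strand, the sequence that SP1 binds. The KMT2D window lies on the minus strand at chr12:49060745-49061044, the EP300 window on the plus strand at chr22:41092342-41092641, and the CHD4 window on the minus strand at chr12:6606402-6606701. Each window follows RefSeq's start, which for none of the 3 is the outer end of the gene in GENCODE.
KMT2D: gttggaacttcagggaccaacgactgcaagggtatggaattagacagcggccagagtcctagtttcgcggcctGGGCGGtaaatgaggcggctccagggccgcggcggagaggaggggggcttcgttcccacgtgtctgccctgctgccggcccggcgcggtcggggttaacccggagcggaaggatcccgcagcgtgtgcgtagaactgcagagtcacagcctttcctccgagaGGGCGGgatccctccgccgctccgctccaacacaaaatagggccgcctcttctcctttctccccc
EP300: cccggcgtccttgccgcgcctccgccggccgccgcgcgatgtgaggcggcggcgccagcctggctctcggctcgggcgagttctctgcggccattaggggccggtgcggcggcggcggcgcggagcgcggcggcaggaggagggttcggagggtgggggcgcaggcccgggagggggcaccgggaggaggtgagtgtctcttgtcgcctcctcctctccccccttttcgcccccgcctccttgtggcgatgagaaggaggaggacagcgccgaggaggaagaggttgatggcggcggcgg
CHD4: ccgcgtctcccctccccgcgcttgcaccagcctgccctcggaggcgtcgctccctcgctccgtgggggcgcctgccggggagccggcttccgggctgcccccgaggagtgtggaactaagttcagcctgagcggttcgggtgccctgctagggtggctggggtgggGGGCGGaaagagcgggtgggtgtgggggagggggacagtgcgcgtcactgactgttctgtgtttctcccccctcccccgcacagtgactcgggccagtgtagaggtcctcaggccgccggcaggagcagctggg

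Over the 10 genes, RefSeq lists 15 such windows, 5 of them for NSD1 and 2 for CREBBP. The NSD1 windows at chr5:177133350-177133649 and chr5:177133523-177133822 overlap, so a sequence in their shared bases is counted in both. The GC box was found in 14 of the 15 windows, all but that of EP300, and in 45.0% of the 35116 promoters of the table (both strands searched). The TATA box TATAAA was found in none of the 15 and in 11.5% of all promoters. CCAAT was found in 2 windows, the overlapping 2 of NSD1, which share the same site, against 34.6% of all promoters. The YY1 sequence AAGATGGC was found in 1 window each of CREBBP and KMT2B, against 2.9%. The NRF1 sequence GCATGCGC, the ETS sequence CCGGAAGT and the CRE sequence TGACGTCA were found in none, against 3.1%, 4.1% and 1.8%. The windows were rich in CpG, with a median of 36 (range 7 to 56) against a median of 14 over all promoters. The windows of KMT2D, EP300 and CHD4 had 27, 40 and 24 CpG. A link between CpG and the response to SS was not tested.

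SS lowered the read counts of 9 of these 10 genes. Relative to control, counts fell by 29.5% for ARID1A, the smallest of the 9 changes, and fell by 56.5% for KMT2D, the largest, and CHD4 was the one gene that was not called. A gene was called when its p from the quasi-likelihood test of edgeR, adjusted over all tested genes after Benjamini and Hochberg, did not exceed 0.05. By this rule 21.4% of the tested genes were lower in SS than in control and 18.6% were higher. The median log2 fold change was -0.67 over the 10 genes and 0.00 over all tested genes. For the same 9 genes both SS libraries lay below both control libraries in CPM, which was so for 36.9% of the tested genes. Since the libraries measure RNA relative to the total, a lower level per cell and a rise of other RNA cannot be told apart.

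**Figure D1:**
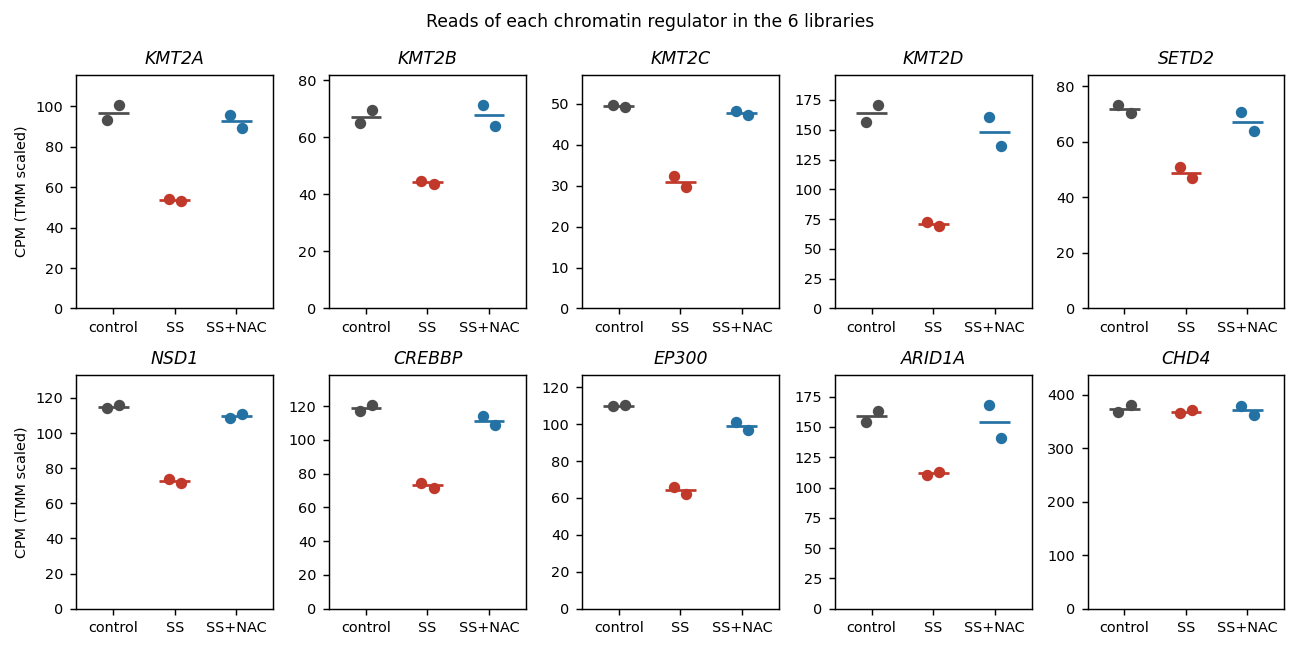
CPM (TMM scaled, axis from 0) of the 10 chromatin regulators in the 2 control, 2 SS and 2 SS+NAC libraries, with points for libraries and bars for group means. In 9 panels the SS libraries lie below the other 4, while for CHD4 all 6 libraries lie between 362 and 380.4.

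Of the H3K4 methyltransferases, KMT2D fell furthest. KMT2D, which monomethylates H3K4 at enhancers, had 157 and 171 CPM in the control libraries, 72.8 and 69.5 in SS, and 160.4 and 136 in SS+NAC. Its log2 fold change between SS and control was -1.20 (SE 0.0927, 95% interval -1.41 to -1.0), with an adjusted p of 4.45e-05 from edgeR. KMT2C, its closest paralog and partner enzyme at enhancers, had 49.7 and 49.2 CPM in control, 32.3 and 29.6 in SS, and 48.2 and 47.2 in SS+NAC. KMT2C was the least abundant of the 10 genes and fell by 0.67 on the log2 scale (SE 0.0782, adjusted p 0.000233). The ratio of KMT2D to KMT2C counts was 3.15 and 3.47 in control, 2.26 and 2.35 in SS and 3.32 and 2.89 in SS+NAC, so the SS libraries held the lowest ratios of the 6. This ratio was not tested, and KMT2D has the longer transcript of the 2, at 19956 against 16521 bases. With the length offset described below the log2 fold changes of KMT2D and KMT2C were -0.50 and -0.02.

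KMT2A, the enzyme that is rearranged in acute leukaemias, had 93.2 and 101 CPM in control, 54.2 and 53.1 in SS, and 95.9 and 89.3 in SS+NAC. It fell by 0.85 on the log2 scale (SE 0.0773, adjusted p 9.72e-05), the second largest fall of the 10 genes. KMT2B, its paralog, had 65.0 and 69.4 CPM in control, 44.7 and 43.7 in SS, and 71.3 and 64.1 in SS+NAC. Its change was -0.61 (SE 0.0817, adjusted p 0.00046). The ratio of KMT2A to KMT2B counts was 1.43 and 1.45 in control, 1.21 in both SS libraries, and 1.35 and 1.39 in SS+NAC, again lowest in SS. This ratio was not tested either, and KMT2A has the longer transcript of the 2, at 16088 against 7205 bases. With the length offset described below the log2 fold changes of KMT2A and KMT2B were -0.20 and -0.17.

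Both H3K36 methyltransferases were lower in SS. Neither was called with the length offset described below, where SETD2 was at -0.06 and NSD1 at -0.10 on the log2 scale. SETD2, which is the main source of H3K36 trimethylation, had 73.3 and 70.4 CPM in control, 50.9 and 47.0 in SS, and 70.7 and 63.8 in SS+NAC, and fell by 31.9% from control to SS (log2 fold change -0.55, SE 0.0824, adjusted p 0.000714). NSD1, a dimethyltransferase lost in Sotos syndrome, had 114 and 116 CPM in control, 73.7 and 71.5 in SS, and 109 and 111 in SS+NAC, and fell by 36.9% (log2 fold change -0.66, SE 0.0699, adjusted p 0.000165). For both genes the SS libraries lay below all the others. The ratio of NSD1 to SETD2 counts was 1.56 and 1.65 in control, 1.45 and 1.52 in SS and 1.54 and 1.74 in SS+NAC. It was lowest in SS and was not tested, and NSD1 has the longer transcript of the 2, at 11036 against 8482 bases.

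The acetyltransferases fell by similar amounts. CREBBP, which encodes CBP, had 117 and 120.5 CPM in control, 74.6 and 71.4 in SS, and 114 and 109 in SS+NAC. Its log2 fold change between SS and control was -0.70 (SE 0.0725, adjusted p 0.000157). EP300, which encodes its paralog p300, had 109.6 and 110.1 CPM in control, 65.8 and 62.4 in SS, and 101 and 96.6 in SS+NAC. Its log2 fold change was -0.78 (SE 0.0723, adjusted p 0.000106). The ratio of EP300 to CREBBP counts was 0.938 and 0.914 in control, 0.882 and 0.873 in SS, and 0.885 and 0.889 in SS+NAC. It too was lowest in SS, by a small margin from SS+NAC, and was not tested. With the length offset described below the log2 fold changes of CREBBP and EP300 were -0.16 and -0.27, and of the 2 only EP300 was called.

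The remodelling genes parted. ARID1A had 154 and 163 CPM in control, 111 and 113 in SS, and 168 and 141 in SS+NAC, and its fall was the smallest of the 9 (log2 fold change -0.50, SE 0.0904, adjusted p 0.00178). CHD4 was the most abundant of the 10 genes and had 368 and 380.4 CPM in control, 366 and 371 in SS, and 380.0 and 362 in SS+NAC. The 3 groups overlapped. Its log2 fold change of -0.02 had a 95% interval from -0.18 to 0.14 (adjusted p 0.851), which does not reach the fall of any of the other 9 genes.

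Per length of transcript, the order of the control levels ran from CHD4 at 57.6 ± 0.658 FPKM (SD, n = 2 libraries) to KMT2C at 3.06 ± 0.0424. Between them came ARID1A at 18.4 ± 0.566, EP300 at 12.5 ± 0.0849, CREBBP at 11.9 ± 0.523, NSD1 at 9.86 ± 0.0141, KMT2B at 8.95 ± 0.233, SETD2 at 8.58 ± 0.368, KMT2D at 8.29 ± 0.424 and KMT2A at 6.20 ± 0.297. Of neighbours in this order, the control libraries of KMT2B and SETD2 overlapped, as did those of SETD2 and KMT2D, whereas those of NSD1 and KMT2B did not. KMT2B and KMT2D did not overlap either. The order of the control means was the same in TPM, from 112 for CHD4 to 5.96 for KMT2C. FPKM carries no scaling between libraries beyond depth. On this scale CHD4 was 57.1 and 58.1 in control against 54.3 and 51.9 in SS, so that the SS libraries were lower, whereas their CPM overlapped. In TPM, which divides by the sum of the length-scaled levels, CHD4 was 112 and 113 in control, 94.8 and 87.5 in SS, and 114 and 117 in SS+NAC, again lower in SS.

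The transcripts of these genes are long, so they were set beside other long genes. The effective length used here was derived from the counts and FPKM. It is proportional to the effective length of RSEM. For some genes it exceeds the length of the annotated transcript with the longest coding sequence, so it serves to order genes by length. It ran from 6576 bases for CHD4 to 19956 for KMT2D. A further 1392 tested genes had an effective length in this range. Of these, 893 (64.2%) were lower in SS than in control and 23 were higher, with a median log2 fold change of -0.48. Among 40 giant genes outside chromatin, 34 were lower and none was higher, with a median of -0.50. Over all tested genes sorted by length into 28 bins, the median log2 fold change went from 0.54 in the shortest bin to -0.54 in the longest, while that of SS+NAC against control stayed between -0.05 and 0.02. The count of 9 in 10 is to be read against this share of the long genes. The origin of the length trend was not tested.

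**Figure D2:**
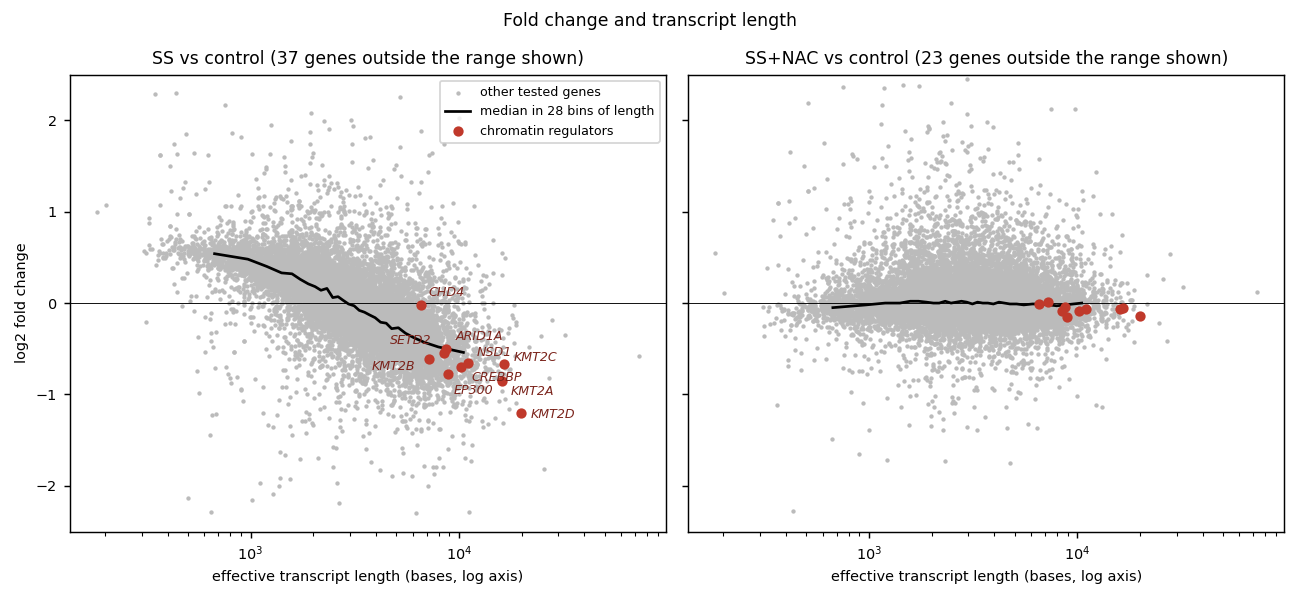
Log2 fold change against effective transcript length (log axis) for all tested genes, for SS against control on the left and SS+NAC against control on the right, with the 10 chromatin regulators in red and the median of 28 bins of length as a line. On the left the line falls from 0.54 to -0.54 and KMT2D (-1.20) lies below it and CHD4 (-0.02) above it, and on the right the line stays between -0.05 and 0.02.

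Within this range of length, KMT2D stood near the lower end and CHD4 near the upper. Of the 1392 other genes, 33 (2.37%) had a lower log2 fold change than KMT2D. The next were KMT2A with 153 genes below it, EP300 with 225, CREBBP with 325, KMT2C with 360 and NSD1 with 383. KMT2B had 487 (35.0%), SETD2 561 (40.3%) and ARID1A 638 (45.8%) genes below, so that ARID1A lay nearest to the middle of the long genes. CHD4 had 1195 (85.8%) below it. In single libraries, the median deviation of the 10 genes from their mean over all libraries was 0.24 and 0.25 (log2 CPM) in control, -0.39 and -0.45 in SS and 0.21 and 0.13 in SS+NAC. That of the other long genes was 0.17 and 0.16, -0.27 and -0.35, and 0.14 and 0.17.

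To take the trend out, the fit was repeated with an offset for length in each library, under which the other 1392 long genes had a median log2 fold change of 0.00 between SS and control. With this offset 5.03% of the tested genes were lower in SS and 4.19% higher. KMT2D was still called lower (log2 fold change -0.50, SE 0.0843, adjusted p 0.00669). EP300 was called lower too (-0.27, SE 0.0676, adjusted p 0.0339), though not with a replicate block added (adjusted p 0.0892). CHD4 was now higher (0.39, SE 0.0690, adjusted p 0.00844). The other 7 genes were not called. KMT2A was at -0.20 (adjusted p 0.119), KMT2B at -0.17 (0.248), CREBBP at -0.16 (0.177), NSD1 at -0.10 (0.361), SETD2 at -0.06 (0.675), KMT2C at -0.02 (0.916) and ARID1A at 0.00 (0.984), all as log2 fold changes with edgeR's adjusted p. For KMT2C and KMT2D, the longest of the 10 genes, the 95% intervals with the offset were -0.17 to 0.14 and -0.69 to -0.31. The difference between these 2 genes was not tested.

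These calls rested on 2 libraries in each group. Leaving out 1 library leaves 1 in its group, so the spread in such a fit comes from the other groups only. Without control replicate 1, KMT2D kept its call with the offset (adjusted p 0.0344), and CHD4 (0.134) and EP300 (0.197) did not. Without control replicate 2, SS replicate 1 or SS replicate 2, none of the 3 was called, at adjusted p of 0.0629, 0.0557 and 0.0617 for KMT2D, 0.0612, 0.0524 and 0.0951 for CHD4, and 0.193, 0.165 and 0.183 for EP300. Over all tested genes these 4 fits called 0.753% to 1.97% lower and 0.733% to 1.45% higher. The fold changes themselves moved little, from -0.58 to -0.45 for KMT2D, from -0.29 to -0.27 for EP300 and from 0.34 to 0.42 for CHD4. Without SS+NAC replicate 1 or 2, KMT2A was called lower in SS than in control as well, at -0.21 and -0.20.

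**Figure D3:**
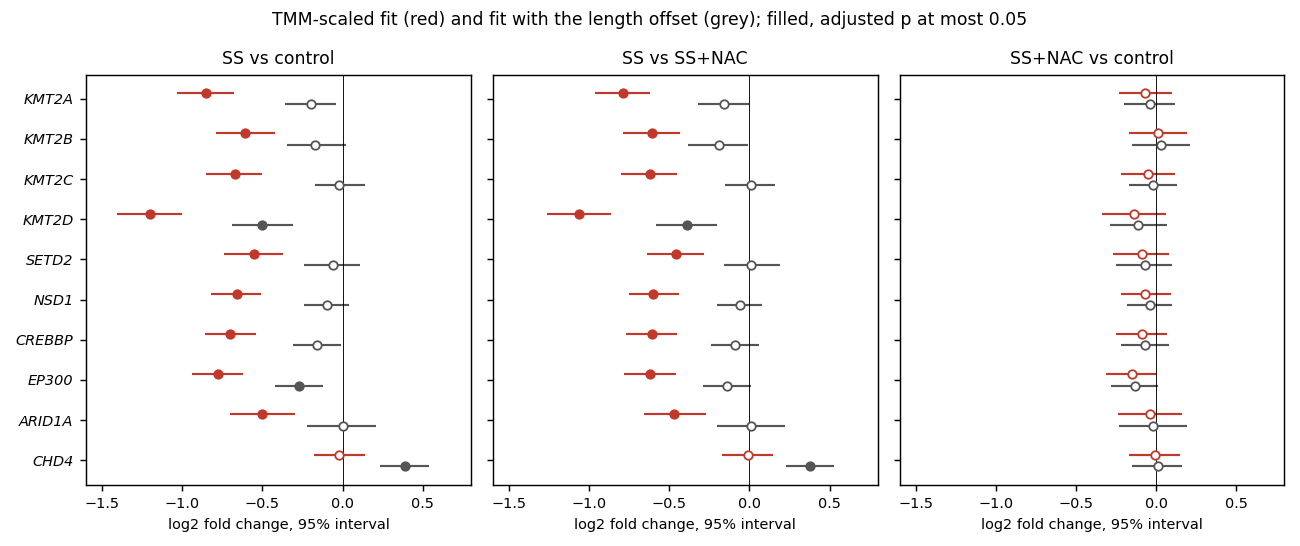
Log2 fold change with its 95% interval for each chromatin regulator in the 3 comparisons, without (red) and with (grey) the length offset, where filled points have an adjusted p of at most 0.05. In SS against control the red points of 9 genes lie between -1.20 and -0.50, and with the offset KMT2D (-0.50), EP300 (-0.27) and CHD4 (0.39) are filled.

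The paper uses NAC as an inhibitor of reactive oxygen species. Compared with SS+NAC, SS again had lower counts of all genes but CHD4, with 9 of 10 called lower against 23.1% of the tested genes (19.6% were higher). KMT2D had a log2 fold change of -1.06 (SE 0.0923, adjusted p 0.000108), KMT2A of -0.79 (SE 0.0769, adjusted p 0.000156), and the other 7 lay between -0.62 and -0.46. CHD4 was at -0.01 (95% interval -0.17 to 0.15, adjusted p 0.938). Both SS libraries lay below both SS+NAC libraries for the 9 genes, as for 38.1% of the tested genes. Of the 1392 other long genes 899 were lower, with a median of -0.45 against -0.61 for the 10 genes. This comparison shares the SS libraries with the one against control, so the 2 are not independent.

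With the length offset, KMT2D (log2 fold change -0.39, SE 0.0841, adjusted p 0.0153) was lower in SS than in SS+NAC and CHD4 (0.38, SE 0.0689, adjusted p 0.00716) was higher. The background was 7.38% lower and 7.04% higher. EP300 was not called (-0.14, 95% interval -0.29 to 0.01, adjusted p 0.191). Of the remaining genes, KMT2B had the lowest value (-0.19, adjusted p 0.144). Without SS+NAC replicate 2 KMT2B was at -0.29 and called, and without SS+NAC replicate 1 it was at -0.10 and not called. KMT2D lost its call without SS replicate 1 (0.0734) or SS replicate 2 (0.12), and CHD4 lost it without SS replicate 2 (0.0961).

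None of the 10 genes was called between SS+NAC and control, where 0.657% of the tested genes were lower and 1.36% higher. None of the 10 had an unadjusted p under 0.05 from edgeR, as 2256 of all 14005 tested genes had, and DESeq2 called 0 of the 10 and 321 of all tested genes. With so few calls in all, a count of 0 in 10 genes is near the background. The fold changes lay between -0.15 for EP300 (95% interval -0.31 to 0.00, adjusted p 0.319) and 0.01 for KMT2B (-0.17 to 0.19, adjusted p 0.97), with a median of -0.07 against -0.02 for the other long genes. KMT2D lay at -0.14 with an interval from -0.34 to 0.06, so these libraries do not separate a fall of that size from no change. Replicate 1 of SS+NAC had the higher CPM for 9 of the 10 genes. The median deviations of the 10 genes (log2 CPM) were 0.21 in replicate 1 and 0.13 in replicate 2. Those of the other long genes were 0.14 and 0.17, and those of all tested genes 0.02 and 0.01. For ARID1A the log2 fold change of SS+NAC against control was -0.17 without replicate 1 of SS+NAC and 0.08 without replicate 2, and for KMT2B it was -0.07 and 0.08. For KMT2D it was -0.26 (adjusted p 0.0775) and -0.03.

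The table also carries information on isoforms, since RSEM weights the length of a gene by the abundance of its transcripts. The length implied by the counts and the FPKM was compared across libraries, a comparison chosen after the values had been seen. It changed with SS for 3 of the 10 genes by at least 5% without overlap of the SS and control libraries. The length of NSD1 fell by 15.6%, with 11823 and 11781 bases in control, 10019 and 9905 in SS and 11294 and 11002 in SS+NAC. That of KMT2B fell by 11.7%, with 7544 and 7639 bases in control, 6756 and 6652 in SS and 7268 and 7175 in SS+NAC. KMT2A was longer by 6.99%, with 15866 and 15766 bases in control, 16958 and 16887 in SS and 16130 and 15679 in SS+NAC. The other 7 shifted by at most 1.80%, and KMT2D by -0.109%. Such shifts were not rare: of the 10864 genes with an FPKM of at least 1 in every library, 6.08% were shorter and 5.13% longer by this rule, and 18.9% of the other genes of this range of length shifted one way or the other. The isoforms themselves were not analysed here, and no test was made.

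**Figure D4:**
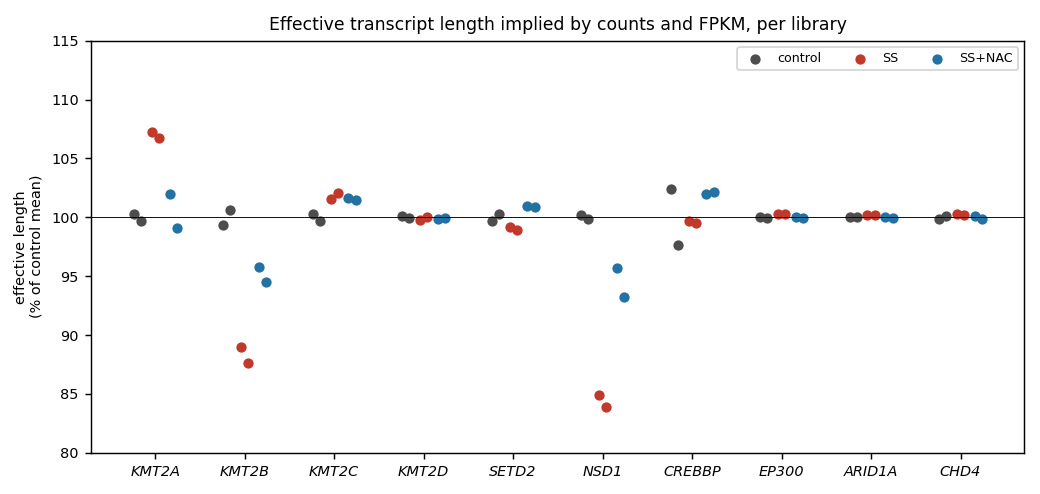
Effective transcript length of each chromatin regulator in the 6 libraries as a percentage of its control mean (axis not from 0). In the SS libraries NSD1 fell by 15.6% and KMT2B fell by 11.7%, KMT2A is longer by 6.99%, and the other 7 genes shift by at most 1.80%.

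The genes were placed on GRCh38 with GENCODE release 29. KMT2D lies on the minus strand of chromosome 12 from 49018975 to 49059774. The transcript described for each gene is the one with the longest coding sequence. That of KMT2D has 54 exons and 19419 bases, 16611 of them coding. EP300 lies on the plus strand of chromosome 22 from 41091786 to 41180079, with 31 exons and 9587 bases. CHD4 lies on the minus strand of chromosome 12 from 6570082 to 6614524, with 38 exons and 6291 bases. The reads were not stated to be counted by strand. For CHD4, 91.94% of the bases of the described transcript lie in exons of other annotated genes (AC006064.2 and AC006064.6), and for KMT2A 23.06% (AP001267.3 and AP001267.5). None of these other genes has a row in the table, so their reads cannot be told apart from those of CHD4 and KMT2A. KMT2C shares 8.07% of its stretches of 50 bases, the read length, with other genes such as BAGE2, so its counts are partly a division of reads between copies. The other 7 genes shared at most 1.34% of their exonic bases and 1.09% of such stretches with other genes.

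The partners of these enzymes and related chromatin genes were read from 7 further lists. Their counts are to be read against all tested genes, of which 21.4% were lower in SS than in control and 18.6% higher. With the offset these shares were 5.03% and 4.19%. Of the 1392 other long genes, 64.2% were lower without the offset. Of 17 partners of the H3K4 methyltransferases (COMPASS), 10 were lower in SS than in control and 1 was higher, with a median log2 fold change of -0.28. SETD1B, an H3K4 methyltransferase, was at -0.77 (adjusted p 0.000985) and NCOA6, a subunit of the KMT2C and KMT2D complexes, at -0.63 (0.000249). HCFC2, a host cell factor, was at -0.62 (0.00349). With the length offset 1 of the 17 was lower and 1 higher, and none of these 3 genes was called.

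Of 21 other histone methyltransferases, 8 were lower and none higher, with a median of -0.15. ASH1L, an H3K36 methyltransferase, was at -0.86 (adjusted p 0.000102), SUZ12, a subunit of the H3K27 methyltransferase complex PRC2, at -0.62 (0.000581), and DOT1L, which methylates H3K79, at -0.61 (0.00119). With the offset 3 of the 21 were lower and none higher, with a median of -0.13. ASH1L (-0.36, adjusted p 0.0147) and SUZ12 (-0.42, adjusted p 0.0115) were still lower, and DOT1L was not called (-0.14, adjusted p 0.453). Of 24 other acetyltransferases and coactivators, 15 were lower and 3 higher, with a median of -0.35. KAT6A, an H3 acetyltransferase, was at -0.83 (adjusted p 0.000227), the Mediator subunit MED1 at -0.74 (0.000123) and the coactivator NCOA2 at -0.71 (0.000205). With the offset 3 of the 24 were lower and none higher, with a median of 0.02. Of the named genes, MED1 was lower with the offset too (-0.27, adjusted p 0.0384), but it was not called with a replicate block added (-0.26).

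Of 25 SWI/SNF partners of ARID1A, 7 were lower and 4 higher, with a median of -0.02, so their shares were close to those of all tested genes. The 3 largest changes were those of BICRA (-0.63, adjusted p 0.00126), ARID1B (-0.62, 0.000249), the paralog of ARID1A, and BICRAL (-0.53, 0.00355). None of them was called with the offset, which left 1 of the 25 lower and 1 higher. Of 19 tested NuRD partners and other CHD remodellers, 7 were lower and 2 higher, with a median of -0.09. Other CHD genes were called lower where CHD4 was not. CHD9 was at -1.09 (adjusted p 0.000121), CHD1 at -0.78 (0.000186) and CHD6 at -0.49 (0.00195). With the offset 2 of the 19 were lower and 3 higher, with a median of 0.06. CHD9 (-0.52, adjusted p 0.0108) and CHD1 (-0.44, adjusted p 0.0102) were lower and CHD6 was not called (0.03, adjusted p 0.864).

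Of 20 histone demethylases, 9 were lower and none higher, with a median of -0.29. JMJD1C was at -0.98 (adjusted p 0.000102; with the offset -0.49, adjusted p 0.00544), KDM7A at -0.80 (0.00904) and the H3K36 demethylase KDM2A at -0.55 (0.000557). With the offset 1 of the 20 was lower and none higher, with a median of 0.01. KDM7A (-0.29, adjusted p 0.371) and KDM2A (-0.18, adjusted p 0.146) were not called. Of 19 deacetylases and corepressors, 4 were lower and 2 higher, with a median of -0.15. The corepressor RCOR1 was at -0.53 (adjusted p 0.000545) and the deacetylase SIRT6, with a short transcript, at 0.52 (0.00355). With the offset none of the 19 was called by edgeR, and the median was 0.09. An unadjusted p under 0.05 from edgeR was found for 5 of the 19, against 3555 of all 14005 tested genes. Between SS+NAC and control, 0.657% of all tested genes were lower and 1.36% higher. Of the 185 tested genes of all lists, 1 was called in this comparison, the H3K27 demethylase KDM6B. It had 14.3 and 16.1 CPM in control, 13.3 and 11.8 in SS and 23.7 and 21.8 in SS+NAC (log2 fold change 0.58, adjusted p 0.0224).

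**Figure D5:**
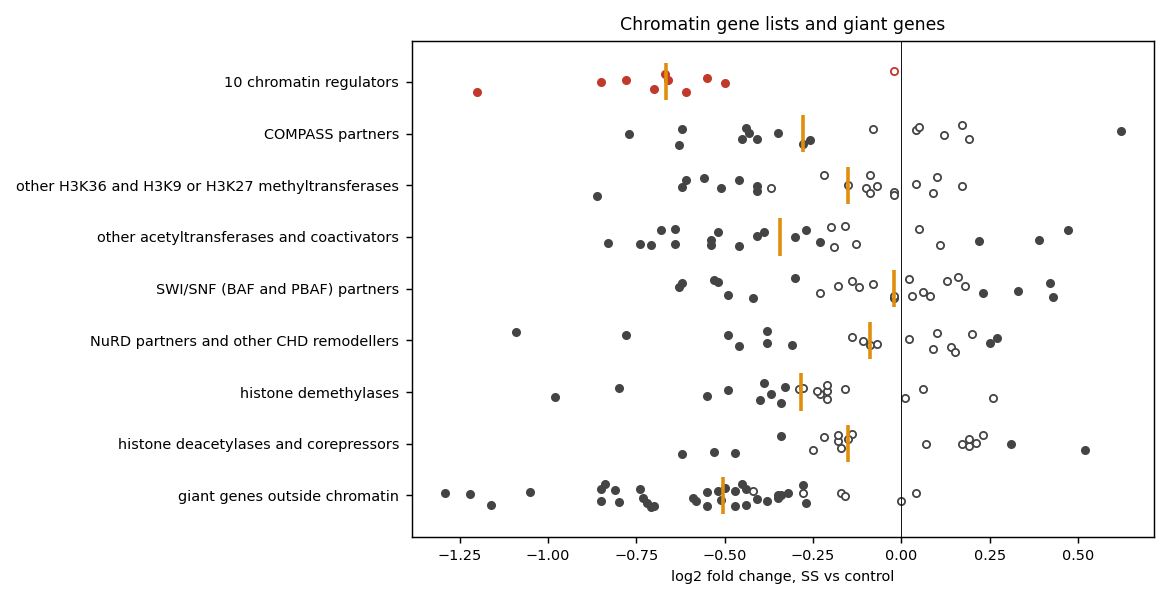
Log2 fold change between SS and control of the 10 chromatin regulators (red), 7 lists of other chromatin genes and 40 giant genes (grey), where filled points have an adjusted p of at most 0.05 and the orange line is the median of each list. The medians are -0.67 for the 10 genes, -0.50 for the giant genes and -0.35 to -0.02 for the other lists.

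Among the giant genes outside chromatin, VPS13A, a lipid transfer protein, was at -1.29 (adjusted p 7.22e-05), the tumour suppressor APC at -1.22 (4.27e-05) and the nucleoporin RANBP2 at -1.16 (2.76e-05), values like that of KMT2D. All 3 were lower with the offset as well, at -0.69, -0.67 and -0.61. Among the 40, 4 were lower and 6 higher with the offset. Among the other long genes that were called and averaged 1 CPM or more, the largest falls were those of LY75-CD302, which had 79 and 30 counts in control and 0 in both SS libraries, NBPF10 (-2.28, adjusted p 1.8e-05) and KIAA0754 (-2.0, adjusted p 1.58e-05), and the largest rises were those of EFCAB8 (1.64, adjusted p 3.9e-05), RGPD1 (1.44, adjusted p 0.0136) and CRYBB3 (1.33, adjusted p 0.000299). LY75-CD302 is a read-through gene and NBPF10 and RGPD1 have near-identical copies, so their counts are uncertain.

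The profile of the 10 genes over the 6 libraries was compared with those of the 12657 tested genes that averaged 1 CPM or more, as the Euclidean distance of centred log2 CPM from the mean of the 10. The nearest were NCOA6 (0.0611), HOMER1 (0.0804), SOGA1 (0.0859), CSNK1G1 (0.0862) and NUP210 (0.0875), where the median gene lay at 0.788. Of the 10 genes themselves, CREBBP lay nearest to their mean (0.0539), followed by KMT2B (0.0942), KMT2C (0.0979) and NSD1 (0.103). KMT2D (0.60) and CHD4 (0.703) lay furthest away, on opposite sides.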

How the data were processed

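The authors captured polyadenylated RNA, copied it from random primers and sequenced single-end reads of 50 bases. Reads were filtered with SOAPnuke, mapped with HISAT2 2.0.4 and quantified with RSEM 1.2.12; Bowtie2 2.2.5 is also named in the submitters' processing notes. The deposited values used for testing are expected counts, which the authors made with RSEM for 6 libraries; 44.8% were not whole. The FPKM values in the deposited table were computed by the authors from these counts, the effective length and the depth. The deposited TPM values, scaled by the authors in the same program, were read as a second level per length. Columns of the authors' own comparisons (log2 fold changes, p-values and q-values) were not used.

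The expected counts were rounded, filtered with filterByExpr (14005 of 17687 genes kept), scaled with TMM (factors 0.920 to 1.06) and tested with the quasi-likelihood test of edgeR 4.0.16 (R 4.3.3). All 6 libraries entered one fit, with Benjamini-Hochberg adjustment and a limit of 0.05. With 2 libraries a group, p-values measure the spread between these samples. The prior count for log2 CPM was 2. The offset for length came from a lowess fit (span 0.3) of each library's log2 CPM deviation on the log of effective length, which was derived from counts, FPKM and library totals. The fit was tested on simulated data. DESeq2 1.42.0 was an alternative. Other settings were a replicate block, other filters, other spans, other definitions of long genes, and leave-one-out fits. Summaries used Python 3.11.15 (pandas 2.3.3, numpy 2.4.6) and plots matplotlib 3.10.9.

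The members and lists were chosen with earlier results of these data known. Genes named beside the members were the 3 called genes with the largest absolute change in SS against control of each list, list genes called between SS+NAC and control, the 3 largest falls and rises of the other long genes with at least 1 CPM, and the 5 nearest profiles. Results for some genes that this rule covers are not reported here. The narrower span of 0.1, the comparison of effective lengths and leaving out libraries under the offset were added after seeing the data.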

Additional observations from a re-analysis of the deposited data

How the results depend on the processing

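The 9 falls in SS against control and against SS+NAC were called under DESeq2's test and size factors, the other filters, the compared libraries only, the replicate block and without each library, and the length offset changed them. With 2 libraries a group, 1 library can decide a call. A fit without 1 library leaves its group with 1, and the spread then comes from the other groups only.

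With the offset, with the offset and replicate block, with a span of 0.6 and with a span of 0.1 (added after seeing the data), 2, 1, 2 and 2 of the 10 genes were lower in SS than in control and 1 was higher each time. Called genes numbered 1292, 851, 1320 and 1275. The median log2 fold change of the 10 genes was -0.13, -0.13, -0.10 and -0.13, and that of the other long genes 0.00, 0.00, 0.02 and 0.00. Against SS+NAC, in the same order, 1, 1, 0 and 1 were lower and 1 was higher each time, called genes numbered 2019, 1367, 2055 and 1998, the medians were -0.07, -0.07, -0.05 and -0.08, and the other long genes lay at 0.01 in each. Other long genes of at least 8000 bases had medians of -0.52 and -0.51 in the 2 comparisons, and the 100 longest -0.58 and -0.53.

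Signs that turned in these 4 fits, in the same order, were in SS against control those of CHD4 (0.39, 0.39, 0.38 and 0.39), CHD6 (0.03, 0.03, 0.04 and 0.03), KDM6B (0.14, 0.13, 0.13 and 0.14), SOGA1 (0.02, 0.02 and 0.08, not with the span of 0.1), ARID1A (0.00 with spans of 0.6 and 0.1) and KMT2C (0.06 with the span of 0.6). Among the 10 genes they were, against SS+NAC, CHD4 (0.38, 0.38, 0.37 and 0.39), SETD2 (0.01, 0.01, 0.01 and 0.02), ARID1A (0.01, 0.02, 0.02 and 0.02) and KMT2C (0.01, 0.00 and 0.07, not with the span of 0.1), and for SS+NAC against control CHD4 (0.01, 0.01, 0.00 and 0.01). Values near 0 turned elsewhere: CHD4 in SS against control with at least 10 counts in every library (0.01), against SS+NAC with DESeq2's test and size factors (0.02 in both), with at least 10 counts (0.01) and with the compared libraries only (0.00), and KMT2B in SS+NAC against control with DESeq2's test and size factors (-0.01 in both). The offset takes out what follows length by its construction; the cause of the other turns was not tested.

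Leaving out each library gave 3118 to 6579 called genes in SS against control (3118 and 3628 without control replicates 1 and 2, 3164 without SS replicate 2), 3250 (without SS replicate 2) to 6339 against SS+NAC and 98 to 1086 between SS+NAC and control (98 and 99 without control replicates 1 and 2, 1086 without SS+NAC replicate 1). The median of the 10 genes lay between -0.71 and -0.63 in SS against control and between -0.12 and -0.03 in SS+NAC against control, and that of the other long genes between -0.52 and -0.45 and, against SS+NAC, between -0.50 and -0.42. CHD4 lay between -0.05 and 0.03 in SS against control, -0.04 and 0.03 against SS+NAC and -0.05 and 0.02 in SS+NAC against control, where KMT2B lay between -0.07 and 0.08 and ARID1A between -0.17 and 0.08. With the offset, 0 to 3 genes were lower and 0 to 1 higher in SS against control, and 0 to 2 lower and 0 to 1 higher against SS+NAC, where 213 to 2472 and 343 to 3812 genes were called in all.

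The labels number the replicates alike in each group, but equal numbers did not deviate together (correlations 0.113, -0.105 and -0.175), so they were not taken as pairs. With a replicate block 4857, 5136 and 211 genes were called in the 3 comparisons, and 9, 9 and 0 of the 10 genes were called lower. With the offset and the replicate block, EP300 (-0.27, adjusted p 0.0892) and MED1 (-0.26) were not called in SS against control, and KMT2D (adjusted p 0.013) and CHD4 (0.0246) were.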
